A study of Glycine max with 30 samples.

Results

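WRI1, DGAT1 and FATB act at 3 points of seed oil synthesis, and 2 gene copies of each were followed here through soybean seed filling. The set holds Glyma15g34770 and Glyma08g24420 (WRI1 homologs), Glyma13g16560 (DGAT1A), Glyma17g06120 (DGAT1B), Glyma05g08060 (FATB1a) and Glyma17g12940 (FATB1b). They were chosen by function, with earlier results of these data already known. These are 6 of the 54175 annotated genes of the count tables, and all 6 were present and passed the filter on low counts. The tables hold identifiers only, so the names are those assigned when the genes were chosen and were not checked here against sequence. The deposited gene ontology output places Glyma08g24420 under transcription factor activity. The study drew that output from genes it called as differing between the lines compared here.

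WRI1 (WRINKLED1) is a transcription factor known from Arabidopsis to switch on genes of glycolysis and plastid fatty acid synthesis in maturing seeds. FATB is a plastid acyl-ACP thioesterase that releases mainly saturated fatty acids, palmitate above all, from the growing chain. DGAT1 (diacylglycerol acyltransferase) then adds the last acyl chain that turns diacylglycerol into triacylglycerol, the storage oil.

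Whole developing seeds, with cotyledons, endosperm and seed coat together, were sampled from a low phytic acid line and a line with normal phytic acid. The 3mlpa line is homozygous for mips1, mrp-l and mrp-n, mutations in an inositol phosphate synthase gene and in a pair of transporter genes, and 3MWT carries the non-mutant alleles of all 3 genes. Both are recombinant inbred lines from a single cross of a mips1 parent with an mrp-l mrp-n parent, each 1 line, so they differ at other loci too and the mutations cannot be told apart from that background. The 5 stages were classes of seed length, which ran from 2 to 4 mm for stage 1, then through 4 to 6, 6 to 8 and 8 to 10 mm, up to 10 to 12 mm for stage 5. Each line and stage had 3 replicates, each a pool of seeds from several plants grown in the same chamber, which gives 30 libraries. The 6 libraries of a stage were sequenced in 1 lane, so stage and lane cannot be told apart, while the lines shared each lane.

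Counts assigned to genes came to 18625357 to 26646706 per library in 3mlpa and 14150244 to 29476755 in 3MWT. Levels are given in CPM, counts set to a common library size, after TMM scaling, a correction for the weight that a few very abundant transcripts take in a library. A gene is called changed where edgeR's quasi-likelihood test gave a Benjamini-Hochberg adjusted p, over all genes tested, at or below 0.01. As a check of the tissue label, the summed level of 14 genes under nutrient reservoir activity, a list that the study drew from genes differing between these lines, was 235250 to 275653 CPM in the 6 libraries of stage 5 and 19.5 to 326.7 CPM in the 6 libraries of stage 1. Lines also differed in reads that aligned to more than 1 place and were not counted, 4298110 to 8643432 alignments per library in 3mlpa and 9060479 to 50575458 in 3MWT, with no overlap. The part of these uncounted reads in the results, for pairs of similar gene copies in particular, was not tested. One library stood apart for the WRI1 homologs, replicate 2 of 3MWT at stage 1. The WRI1 steps, stage 5 over stage 1, the lines at stage 1 and line by stage are given with and without it. Other edgeR fits of WRI1 that hold it, among them the fit over 30 libraries for stage 2, are given with it only.

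The first question was how each gene moved through seed filling. Under TMM scaling, both WRI1 homologs and both DGAT1 genes changed over the 5 stages in each line. All 4 were higher at stage 5 than at stage 1. Of the FATB pair, FATB1b alone was called, lower at stage 5 in 3mlpa. By the test over all 5 stages, 4 of the 6 genes were called in 3mlpa, where 45.8 % of all genes tested were, and the same 4 genes were called in 3MWT, where 44.6 % were. With 6 genes and a background this high, the count alone does not set them apart.

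**Figure D1:**
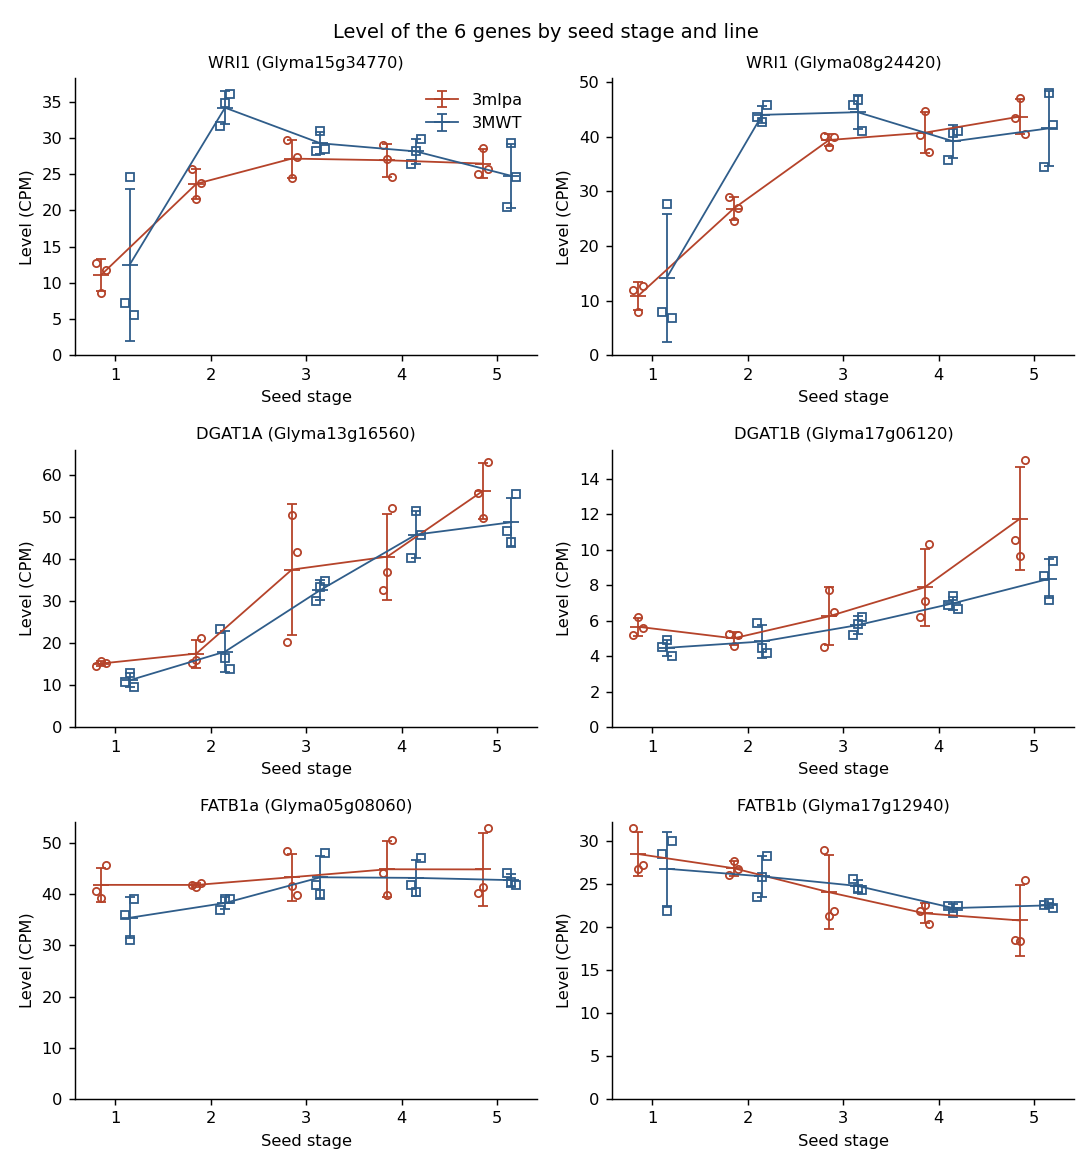
Level of each gene (CPM, vertical axis) by seed stage (horizontal axis) in 3mlpa (circles, left of each pair) and 3MWT (squares, right). Open symbols are libraries, and dashes with bars are means with SD of 3 libraries. Glyma08g24420 averaged 43.7 CPM at stage 5 and 10.9 CPM at stage 1 in 3mlpa, and 41.5 and 14.2 CPM at the same stages in 3MWT, while FATB1a stayed between 35.4 and 44.9 CPM on average.

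Glyma15g34770, the first WRI1 homolog, had 12.8, 8.55 and 11.8 CPM in the 3 libraries of 3mlpa at stage 1, against 7.21, 24.6 and 5.58 CPM in 3MWT. At stage 2 it had 25.7, 21.6 and 23.7 CPM in 3mlpa, against 31.6, 34.9 and 36.1 CPM in 3MWT. Stage 2 libraries of each line lay above those of stage 1, and at stage 2 each 3mlpa library lay below each 3MWT library. At stage 3 it had 29.7, 24.4 and 27.4 CPM in 3mlpa, against 28.3, 31.0 and 28.5 CPM in 3MWT. Stage 4 gave 29.1, 27.2 and 24.6 CPM in 3mlpa against 26.5, 28.2 and 29.8 CPM in 3MWT, and stage 5 gave 25.0, 28.7 and 25.7 CPM against 20.4, 29.3 and 24.6 CPM. The lines overlapped at stages 1, 3, 4 and 5.

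Glyma08g24420, the second WRI1 homolog, had 12.0, 7.91 and 12.7 CPM in 3mlpa at stage 1, against 7.99, 27.7 and 6.85 CPM in 3MWT. At stage 2 it had 28.9, 24.6 and 27.0 CPM in 3mlpa, against 43.6, 42.7 and 45.7 CPM in 3MWT. At stage 2 the 3MWT libraries thus lay within the range of the later stages of their line, and the 3mlpa libraries lay below every later library of theirs. At stage 3 the gene had 40.1, 38.1 and 39.9 CPM in 3mlpa, against 45.8, 46.7 and 41.0 CPM in 3MWT, which again did not overlap. Stage 4 gave 40.4, 44.7 and 37.2 CPM in 3mlpa against 35.7, 40.8 and 41.0 CPM in 3MWT, and stage 5 gave 43.5, 47.0 and 40.5 CPM against 34.4, 48.01 and 42.2 CPM. The lines overlapped at stages 4 and 5.

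The steps of WRI1 that were called lay between stage 1 and stage 2, and in 3mlpa Glyma08g24420 also had a higher mean at each later stage than at the one before. In 3MWT, stage 2 over stage 1 had a log2 fold change of 1.47 (SE 0.30, edgeR adjusted p = 0.000708) for Glyma15g34770 and 1.64 (SE 0.29, adjusted p = 0.000192) for Glyma08g24420. In 3mlpa the same step was 1.30 (SE 0.29, edgeR adjusted p = 0.00368) for Glyma08g24420, and for Glyma15g34770 it was 1.10 (SE 0.29, adjusted p = 0.0141) and was not called by edgeR but was by DESeq2 (adjusted p = 0.00390). The Glyma08g24420 step in 3mlpa was lost under total counts, at 1.23 (edgeR adjusted p = 0.0143). Higher calls at this step made up 7.48 % of all genes in 3MWT and 4.60 % in 3mlpa. No later step was called for either homolog by edgeR (none with an unadjusted p under 0.05) or by DESeq2, though a step that misses the threshold does not show equal levels. The largest of these later steps was stage 3 over stage 2 of Glyma08g24420 in 3mlpa, with a log2 fold change of 0.55 (SE 0.28, edgeR adjusted p = 0.216) and no overlap between the libraries of these stages.

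Replicate 2 of 3MWT at stage 1 carried 3.84 times the mean level of the other libraries of its group for Glyma15g34770 and 3.73 times for Glyma08g24420. The ratio was 1.26 for DGAT1A and 1.15 for DGAT1B, and 0.828 for FATB1a and 0.747 for FATB1b. In the same library the 14 nutrient reservoir genes summed to 327 CPM, against 135 and 159 CPM in its group mates. On the first principal component, the main axis of variation in log2 CPM over 32401 genes, this library lay at -116.2. The other stage 1 libraries lay at -158.7 to -132.3, and the stage 5 libraries at 104.0 to 126.1. This library also had the lowest gene counts of all libraries, 14150244. Whether its seeds were further along than the others of their stage was not tested. Without this library, a choice made after its values were seen, the step of 3MWT was 2.41 (SE 0.17, edgeR adjusted p = 8.87e-11) for Glyma15g34770 and 2.56 (SE 0.17, adjusted p = 3.63e-11) for Glyma08g24420, where 17.0 % of all genes were called in either direction. The step of 3mlpa for Glyma15g34770 was then called too, at 1.10 (edgeR adjusted p = 2.44e-06), and so was stage 3 over stage 2 of Glyma08g24420 in 3mlpa.

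DGAT1A had its lowest mean at stage 1 and its highest at stage 5 in both lines. Its level at stage 1 was 14.5, 15.7 and 15.2 CPM in 3mlpa and 10.8, 12.9 and 9.65 CPM in 3MWT. At stage 2 it was 15.3, 15.9 and 21.3 CPM in 3mlpa and 23.4, 16.5 and 13.9 CPM in 3MWT, and at stage 3 it was 20.2, 50.5 and 41.8 CPM in 3mlpa and 30.0, 33.3 and 34.7 CPM in 3MWT. The lines overlapped at stages 2 and 3, and at stage 1 each 3mlpa library was above each 3MWT library. Stage 4 gave 32.7, 36.9 and 52.2 CPM in 3mlpa and 40.4, 51.5 and 45.8 CPM in 3MWT, and stage 5 gave 55.7, 49.9 and 63.3 CPM in 3mlpa and 46.8, 44.2 and 55.5 CPM in 3MWT. Both late stages overlapped between the lines.

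In 3mlpa the rise of DGAT1A was called at the step between stage 2 and stage 3, with a log2 fold change of 1.10 (SE 0.23, edgeR adjusted p = 0.00268, where 3.75 % of all genes were called higher). The same step in 3MWT was 0.87 (SE 0.23, adjusted p = 0.0140, 3.99 % of all genes called higher) and missed the threshold in edgeR, and it was called by DESeq2 (adjusted p = 0.00461) and by edgeR without replicate 3 of 3mlpa at stage 4 (adjusted p = 0.00931). The 3mlpa library that stood low at stage 3, replicate 1 with 20.2 CPM, also had the lowest nutrient reservoir sum of its group, 14115 CPM against 62744 and 55081 CPM. The 3mlpa library that stood high at stage 4, replicate 3 with 52.2 CPM, had the highest sum, 188650 CPM against 74407 and 84121 CPM. The part of seed progress within a length class in the spread of DGAT1A was not tested. Under total counts the step of 3mlpa was 0.80 (edgeR adjusted p = 0.0108) and was not called. Without all libraries numbered replicate 2 the step of 3mlpa was 0.76 (edgeR adjusted p = 0.205), and without those numbered replicate 3 it was 1.16 (adjusted p = 0.0233). Without those numbered replicate 1 the step was called in both lines, at 1.27 (edgeR adjusted p = 0.00288) in 3mlpa and 1.17 (adjusted p = 0.00424) in 3MWT. In 3MWT it was 0.80 (edgeR adjusted p = 0.159) without replicate 2 and 0.66 (adjusted p = 0.228) without replicate 3.

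DGAT1B had fewer counts than DGAT1A, and its highest mean was at stage 5 in both lines. It averaged 5.66 ± 0.511, 5.01 ± 0.370, 6.25 ± 1.65, 7.89 ± 2.18 and 11.8 ± 2.90 CPM at stages 1 to 5 in 3mlpa, and 4.47 ± 0.441, 4.83 ± 0.916, 5.75 ± 0.511, 6.98 ± 0.375 and 8.36 ± 1.11 CPM in 3MWT (SD, n = 3 each). At stage 5 its libraries had 10.6, 9.64 and 15.1 CPM in 3mlpa, against 8.54, 7.18 and 9.36 CPM in 3MWT, with no overlap and with replicate 3 of 3mlpa well above the rest. No single step between neighbouring stages was called for DGAT1B in either line, the nearest being stage 5 over stage 4 in 3mlpa with a log2 fold change of 0.59 (SE 0.20, edgeR adjusted p = 0.0732), which was called without replicate 3 of 3mlpa at stage 4. Of the 48 step tests over the 6 genes, 4 were called in all (8.33 %), where 4.29 % of the tests of all genes over the same 8 steps were.

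FATB1a and FATB1b moved less than the other 4 genes between stage 5 and stage 1. FATB1a averaged 41.8 ± 3.39, 41.8 ± 0.432, 43.3 ± 4.59, 44.9 ± 5.46 and 44.9 ± 7.10 CPM at stages 1 to 5 in 3mlpa, and 35.4 ± 4.05, 38.3 ± 1.24, 43.3 ± 4.17, 43.2 ± 3.49 and 42.8 ± 1.29 CPM in 3MWT. FATB1b averaged 28.5 ± 2.60, 26.9 ± 0.851, 24.1 ± 4.32, 21.6 ± 1.16 and 20.8 ± 4.10 CPM in 3mlpa, and 26.8 ± 4.34, 25.9 ± 2.40, 24.8 ± 0.696, 22.2 ± 0.474 and 22.5 ± 0.306 CPM in 3MWT. The means of FATB1a were highest at stages 4 and 5 in 3mlpa and at stage 3 in 3MWT. Those of FATB1b were highest at stage 1 in both lines. Over the 5 stages neither gene was called, with edgeR adjusted p = 0.830 in 3mlpa and 0.0949 in 3MWT for FATB1a, and 0.0118 and 0.226 for FATB1b. FATB1b in 3mlpa was just outside the threshold and was called by DESeq2 and by edgeR with DESeq2 size factors. Under total counts both FATB genes were called over the 5 stages in both lines, whereas DGAT1B was called in neither. Glyma15g34770 was then not called in 3mlpa.

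Between the ends of the series the changes in the WRI1 and DGAT1 genes were 1.87-fold or larger. Stage 5 over stage 1 in 3mlpa was 2.39-fold for Glyma15g34770, 4.02-fold for Glyma08g24420, 3.72-fold for DGAT1A and 2.08-fold for DGAT1B, with edgeR adjusted p from 2.59e-07 to 0.000874. In 3MWT the folds were 2.00, 2.94, 4.39 and 1.87 in the same order, with adjusted p from 6.62e-08 to 0.00687. Without replicate 2 of 3MWT at stage 1, the WRI1 folds of 3MWT became 3.85 for Glyma15g34770 and 5.57 for Glyma08g24420, and 38.9 % of all genes were called. FATB1b fell by 0.45 on the log2 scale in 3mlpa (SE 0.13, edgeR adjusted p = 0.00390). In 3MWT it had a log2 fold change of -0.25 (SE 0.13, adjusted p = 0.105). FATB1a had 0.10 (SE 0.11, edgeR adjusted p = 0.458) in 3mlpa and 0.27 (SE 0.11, adjusted p = 0.0475) in 3MWT. Fitted on the libraries of these stages alone, the WRI1 homologs in 3MWT (log2 fold changes 1.002 and 1.56, edgeR adjusted p = 0.122 and 0.0260) and FATB1b in 3mlpa (-0.48, adjusted p = 0.0263) were not called, with fold changes close to those over all libraries. In the fit over all libraries 4 genes were called higher and 1 lower in 3mlpa, where 22.4 % of all genes were called higher and 22.2 % lower, and 4 were called higher in 3MWT, where 19.8 % were called higher and 20.8 % lower.

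These folds are relative to the bulk of transcripts, and the values depend on the scale. The 10 most abundant genes took 23.3 % to 27.9 % of the counts at stage 5 and 2.16 % to 5.41 % at stage 1, and their part in the difference between scales was not tested. Scaled to total counts, the median gene had a log2 fold change of -1.002 in 3mlpa and -0.97 in 3MWT between stage 5 and stage 1, against -0.08 and -0.09 under TMM. Of all called genes, the share called higher was 9.79 % in 3mlpa and 10.5 % in 3MWT under total counts, against 50.3 % and 48.7 % under TMM. On that scale FATB1a was lower at stage 5, with log2 fold changes of -0.84 in 3mlpa and -0.60 in 3MWT, both called by edgeR, and FATB1b was at -1.40 and -1.12, both called. Relative to the median gene, FATB1a was at 0.16 in 3mlpa and 0.37 in 3MWT under total counts, and at 0.18 and 0.36 under TMM. FATB1b was at -0.39 and -0.15 relative to the median under total counts. Under total counts Glyma08g24420 was at 1.07 (called) in 3mlpa and 0.63 in 3MWT, DGAT1A at 0.95 and 1.25 (both called), Glyma15g34770 at 0.32 and 0.07, and DGAT1B at 0.12 and 0.02, the values with no mark not being called. As the samples were bulk seeds, fewer cells expressing a gene and less of its RNA per cell cannot be told apart.

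**Figure D2:**
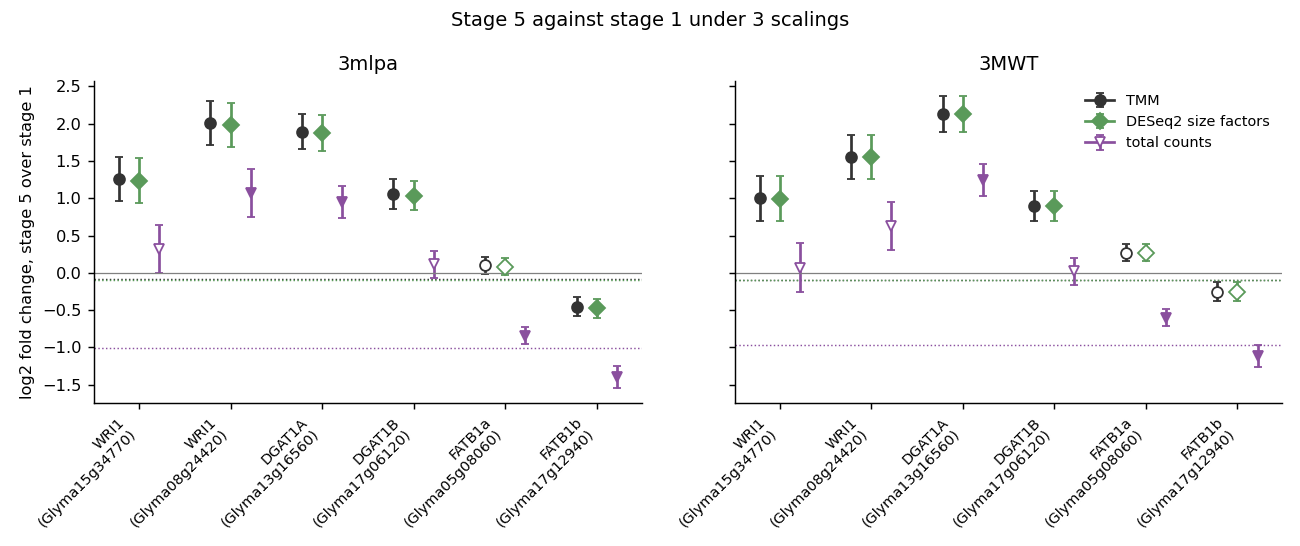
log2 fold change of stage 5 over stage 1 (vertical axis, bars are SE) for each gene in 3mlpa (left panel) and 3MWT (right panel) under TMM, DESeq2 size factors and total counts. Filled symbols were called by edgeR, and dotted lines give the median of all genes, which lies at -1.002 in 3mlpa and -0.97 in 3MWT under total counts. The WRI1 and DGAT1 points are above 0 under all 3 scalings. Of these, DGAT1A alone was called in both lines under total counts.

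The second question was whether the 3mlpa and 3MWT lines differ in these genes. Of 30 tests, 6 genes at 5 stages, 2 were called, both for WRI1 at stage 2 and both lower in 3mlpa. Glyma15g34770 averaged 23.7 ± 2.07 CPM in 3mlpa and 34.2 ± 2.31 CPM in 3MWT at stage 2, a log2 fold change of -0.50 (SE 0.09, edgeR adjusted p = 0.00450). Glyma08g24420 averaged 26.8 ± 2.12 CPM in 3mlpa and 44.0 ± 1.57 CPM in 3MWT, a log2 fold change of -0.68 (SE 0.08, adjusted p = 0.000805). Stage 2 was also the stage with the largest share of genes called between the lines: 14.2 % of all genes were called and 6.56 % were called lower in 3mlpa. Such a share depends on the spread between replicates too. The median SE over all genes was 0.144 at stage 2 and 0.191 to 0.217 at the other stages. The nutrient reservoir genes summed to 818 to 2688 CPM in 3mlpa and 2243 to 16531 CPM in 3MWT at stage 2. On the first principal component, the stage 2 libraries lay at -84.0 to -71.1 in 3mlpa and -68.2 to -33.2 in 3MWT, with no overlap. Every 3mlpa library of stage 2 thus lay nearer the stage 1 end of that axis. The part of seed progress within a length class in the WRI1 difference was not tested.

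**Figure D3:**
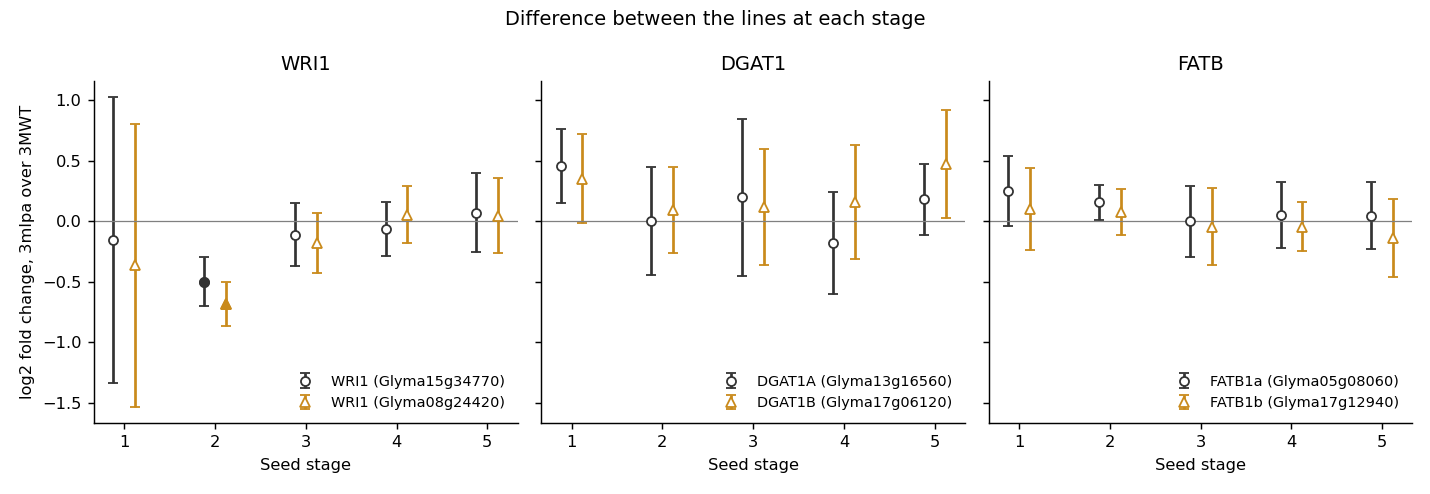
log2 fold change of 3mlpa over 3MWT (vertical axis, bars are 95 % confidence intervals) at each seed stage (horizontal axis) for the WRI1, DGAT1 and FATB pairs. Filled symbols were called by edgeR; these are the WRI1 homologs at stage 2, at -0.50 and -0.68, and the wide WRI1 intervals at stage 1 come with 1 library of 3MWT at 24.6 and 27.7 CPM.

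The call for Glyma15g34770 was lost without replicate 2 or replicate 3 of either line at stage 2, with adjusted p between 0.0142 and 0.0205, while its log2 fold change stayed between -0.50 and -0.44 there. In a fit over all 30 libraries, which shares 1 estimate of the spread across stages and so includes the wide spread of WRI1 at stage 1, neither WRI1 call held, at log2 fold changes of -0.53 for Glyma15g34770 (edgeR adjusted p = 0.213) and -0.71 for Glyma08g24420 (adjusted p = 0.0838), where 7.48 % of all genes were called at stage 2. This comparison was not fitted without replicate 2 of 3MWT at stage 1.

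At stages 1, 3, 4 and 5 none of the 6 genes was called between the lines by edgeR or by DESeq2, where the background was 0.897 %, 1.23 %, 0.996 % and 1.91 % of all genes in edgeR. At an unadjusted p under 0.05, edgeR gave 1 of the 6 genes at stage 1 (29.9 % of all genes), 0 at stages 3 (29.8 %) and 4 (24.0 %), and 1 at stage 5 (30.4 %). DGAT1A averaged 15.1 ± 0.613 CPM in 3mlpa and 11.1 ± 1.65 CPM in 3MWT at stage 1, a log2 fold change of 0.46 (95 % interval 0.15 to 0.76, edgeR adjusted p = 0.0640). DGAT1B at stage 5 was at 0.47 (interval 0.02 to 0.92, adjusted p = 0.146), and at 0.25 (adjusted p = 0.283) without replicate 3 of 3mlpa. The libraries of the lines did not overlap in 8 of the 30 comparisons. In 3 of them 3mlpa was the lower line, both WRI1 homologs at stage 2 (23.0 % of all genes) and Glyma08g24420 at stage 3 (15.7 %). In 5 of them 3mlpa was the higher line, DGAT1A, DGAT1B and FATB1a at stage 1 (16.7 %), FATB1a at stage 2 (20.5 %) and DGAT1B at stage 5 (16.0 %). That is 26.7 % of the comparisons, where 28.0 % to 43.4 % of all genes did not overlap at a given stage in either direction, so the count was not above the background.

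At stage 1 the WRI1 difference turned on the single library that stood apart. With it, the log2 fold change of 3mlpa over 3MWT was -0.15 (interval -1.33 to 1.03) for Glyma15g34770 and -0.36 (interval -1.54 to 0.81) for Glyma08g24420. Without it, the values turned to 0.79 (SE 0.20, edgeR adjusted p = 0.0214) and 0.56 (SE 0.21, adjusted p = 0.0784), neither called. DGAT1A was then called at 0.57 (SE 0.12, edgeR adjusted p = 0.00985), where 10.5 % of all genes were.

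Whether the course over the stages differed between the lines was tested as a line by stage term. With all libraries it was called for 0 of the 6 genes by edgeR (adjusted p from 0.541 to 0.892, none with an unadjusted p under 0.05) and for 0 by DESeq2, where 1.32 % of all genes were called in edgeR. Without replicate 2 of 3MWT at stage 1 it was called for both WRI1 homologs, with edgeR adjusted p = 0.00270 for Glyma15g34770 and 0.00244 for Glyma08g24420, where 4.23 % of all genes were called. The other 4 genes had adjusted p of 0.513 or more in that fit. The library was left out after its WRI1 values were seen, so the WRI1 adjusted p are no independent evidence of a difference. Without that library 3mlpa had the higher WRI1 means at stage 1 and the lower ones at stage 2. The step between these stages was the larger one in 3MWT. Neither stage 1 difference was called. The Glyma08g24420 libraries still overlapped there, with 7.91 CPM in replicate 2 of 3mlpa and 7.99 CPM in replicate 1 of 3MWT. Averaged over the 5 stages 0 of the 6 genes were called (edgeR, 33.3 % of all genes called) and 1 had an unadjusted p under 0.05, DGAT1B with a log2 fold change of 0.24 (SE 0.09, adjusted p = 0.0323).

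The third question was how the copies of a pair share its counts. The share of one copy in the pair's counts does not depend on how libraries are scaled, so it can be compared across stages where the levels depend on the scale. It is not a ratio of transcript numbers, since gene lengths were not used here and reads that fit both copies were not counted.

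In the WRI1 pair Glyma15g34770 took 51.6 %, 52.0 % and 48.3 % of the counts at stage 1 in 3mlpa. Its mean share over stages 1 to 5 was 50.6 %, 46.9 %, 40.7 %, 39.8 % and 37.7 % in 3mlpa, and 46.4 %, 43.7 %, 39.7 %, 41.8 % and 37.3 % in 3MWT. Stage 5 minus stage 1 was thus -12.9 percentage points in 3mlpa and -9.13 in 3MWT, and the libraries of the 2 stages did not overlap in either line. In replicate 2 of 3MWT at stage 1, with its high WRI1 levels, the share was 47.0 %, between its group mates at 47.4 % and 44.9 %.

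DGAT1A took a mean share of 72.8 %, 77.5 %, 85.0 %, 83.8 % and 82.9 % of the DGAT1 counts at stages 1 to 5 in 3mlpa, and 71.3 %, 78.6 %, 85.0 %, 86.7 % and 85.4 % in 3MWT. FATB1a took 59.4 %, 60.9 %, 64.4 %, 67.3 % and 68.4 % of the FATB counts in 3mlpa, and 57.0 %, 59.7 %, 63.5 %, 66.0 % and 65.5 % in 3MWT. The SD within a group of 3 libraries was 0.219 to 2.03 points for the WRI1 share, 0.222 to 2.97 for DGAT1 and 0.641 to 3.81 for FATB. In the DGAT1 and FATB pairs every stage 5 library lay above every stage 1 library of its line.

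**Figure D4:**
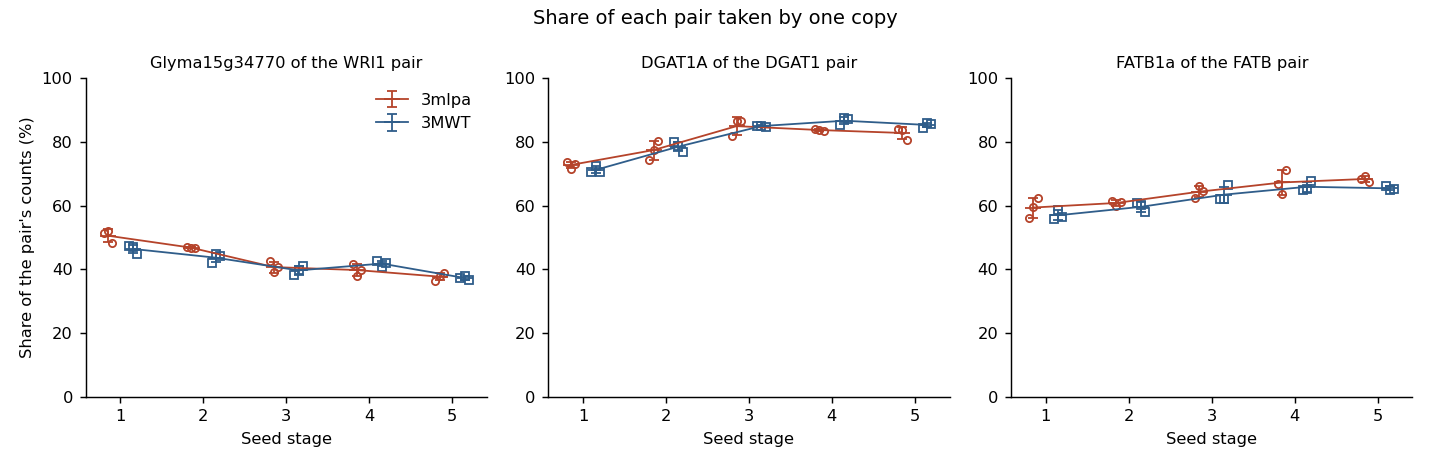
Share of its pair's counts (%, vertical axis) taken by Glyma15g34770, DGAT1A and FATB1a, by seed stage (horizontal axis), in 3mlpa (circles, left) and 3MWT (squares, right). Open symbols are libraries, lines join means and bars are SD of 3 libraries; the WRI1 share is 37.7 % at stage 5 against 50.6 % at stage 1 in 3mlpa, and the DGAT1A and FATB1a shares are higher late.

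Over both lines, stage 5 minus stage 1 was -11.0 percentage points for WRI1, 12.1 for DGAT1 and 8.71 for FATB. Each of these differences had p = 0.005 in a two-sided exact permutation test of the stage labels within lines, the smallest that the design allows, and an adjusted p of 0.01 over the 6 share tests. How many other gene pairs shift as much was not computed, so these values do not set the 3 pairs apart. Over the 5 stages 45.8 % of all genes were called in 3mlpa and 44.6 % in 3MWT.

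Between the lines the shares differed by at most 4.16 percentage points at any stage. Averaged over the 5 stages, 3mlpa minus 3MWT was 1.35 percentage points for WRI1 (two-sided permutation test within stages, p = 0.0487, adjusted p = 0.0584), -0.995 for DGAT1 (permutation p = 0.131) and 1.77 for FATB (permutation p = 0.0194, adjusted p = 0.0291). The WRI1 share was higher in 3mlpa by 4.16 points at stage 1 and 3.17 at stage 2, with no overlap of libraries, and at stages 3 to 5 the difference was 1.04, -2.03 and 0.410 points. The DGAT1A share differed by 1.56, -1.08, -0.018, -2.92 and -2.52 points at stages 1 to 5, and every 3mlpa library was below every 3MWT library at stages 4 and 5. The FATB1a share was higher in 3mlpa by 0.922 to 2.95 points at every stage, and the libraries of the lines overlapped at stages 1 to 4. With 3 libraries against 3 no single stage could reach a p under 0.1. The lines also differ in uncounted multiply aligned reads, and the part of these in a share difference of this size was not tested.

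Across the 30 libraries, which share the stage course, the WRI1 homologs had r = 0.97 on the log2 scale and the DGAT1 genes r = 0.86, whereas the FATB genes had r = -0.03. After the mean of each line and stage was taken out, r was 0.98 for WRI1, 0.87 for DGAT1 and 0.60 for FATB. Without the 3MWT group of stage 1, these within-group values were 0.88, 0.87 and 0.51. Copies of a pair thus deviated together within groups of replicates. Between genes of different pairs the within-group r ran from -0.56 to 0.11, and from -0.54 to 0.30 without the 3MWT group of stage 1. Pairs of genes outside the set were not examined. Genes of 1 library share its seeds, scaling and lane, and the part of these was not tested.

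The genes most like each of the 6 were sought among 32401 genes with a mean of at least 1 CPM, by r over the 10 means of line and stage. For Glyma15g34770 they were Glyma03g20380, Glyma14g10090 and Glyma04g37720 (r from 0.985 to 0.988), and for Glyma08g24420 they were Glyma18g47060, Glyma15g18820 and Glyma07g27820 (all r = 0.993). For DGAT1A they were Glyma09g36950, Glyma05g28250 and Glyma02g47760 (all r = 0.996), and for DGAT1B Glyma05g27700, Glyma13g05080 and Glyma13g43130 (r from 0.985 to 0.990). For FATB1a they were Glyma03g35870, Glyma10g35940 and Glyma10g30850 (r from 0.969 to 0.976), and for FATB1b Glyma0092s00240, Glyma12g36600 and Glyma15g02620 (r from 0.985 to 0.989). Over the 30 single libraries the gene most like Glyma15g34770 was the other WRI1 homolog (r = 0.966). The reverse did not hold: Glyma15g18820 came first for Glyma08g24420 (r = 0.983), and its homolog was not among its 3 nearest genes. No DGAT1 or FATB gene had its copy among its 3 nearest genes. The 10 points follow the same 5 stages, and the values are a description of these means.

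For a wider view of the pathway, 59 genes that the deposited gene ontology output lists under lipid or fatty acid biosynthesis were read in the same fits. None of the 6 genes is among them, and the study listed them because they differed between these lines, so they are not independent of the line comparison. Stage 5 over stage 1, 23 were higher (39.0 %), 20 lower (33.9 %) and 16 not called in 3mlpa, where 22.4 % of all genes were higher and 22.2 % lower. In 3MWT 22 were higher (37.3 %), 10 lower (16.9 %) and 27 not called, where 19.8 % of all genes were higher and 20.8 % lower. Their median log2 fold change was -0.24 in 3mlpa and 0.37 in 3MWT, beside -0.08 and -0.09 for all genes. Glyma08g06630 had 1.61 ± 0.454 CPM at stage 5 against 390.5 ± 29.7 CPM at stage 1 in 3mlpa, and 13.8 ± 7.32 against 307.1 ± 94.6 CPM in 3MWT. Glyma17g37060 likewise had 1.24 ± 0.219 against 89.8 ± 9.73 CPM in 3mlpa and 6.68 ± 3.37 against 84.9 ± 21.3 CPM in 3MWT. Glyma11g07496 went the other way, with 210.7 ± 24.4 CPM at stage 5 against 80.2 ± 12.6 CPM at stage 1 in 3mlpa and 528.1 ± 45.2 against 52.6 ± 16.1 CPM in 3MWT. All 3 were called in both lines by edgeR, with adjusted p of 5.68e-05 or less, and their place in the pathway is not annotated in the files used here. Glyma08g11620, the fourth of the largest changes in 3MWT, had 0.445 ± 0.213 CPM at stage 5 against 4.23 ± 2.15 CPM at stage 1 in 3MWT (edgeR adjusted p = 9.55e-06) and averaged 0.0190 CPM at stage 5 and 0.0594 CPM at stage 1 in 3mlpa.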

How the data were processed

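The deposited tables hold whole-number read counts per gene, made by the authors from single-end reads aligned to the Williams 82 assembly 1.0 with TopHat 2.0.8 and counted with HTSeq-count in union mode, which leaves out reads aligned to several places. The kit named in the methods does not mark strand, so antisense transcription cannot be told apart. Deposited normalised values and the authors' comparisons (fold changes, p-values and adjusted p-values) were not used, and of the deposited gene ontology output only the gene lists were read.

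Genes whose counts in the libraries of a fit came to 10 or more were tested with edgeR 4.0.16 (TMM, quasi-likelihood, Benjamini-Hochberg, R 4.3.3) at a false discovery rate of 1 %. Lines were compared stage by stage over 6 libraries each, and stages and the line by stage term in 1 fit over 30 libraries. Summary lines of the counter (5 per library) were left out of library sizes. Copy shares were tested by exact permutation or by 100000 permutations. The scripts were tested on simulated data. No 2 libraries were identical.

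Alternatives were DESeq2 1.42.0 and its size factors, total counts, other filters, other sets of libraries, a replicate block, a 2-fold minimum, log2 ratios for shares, and leaving out replicates. The genes named are the 6 of the set, the 3 genes most like each by correlation (log2 CPM, prior count 2), and the 4 with the largest stage change in 3MWT among called genes of the lipid list. The genes and lists were chosen with earlier results of these data known.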

Additional observations from a re-analysis of the deposited data

Results flagged for a closer look

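With replicate 2 of 3MWT at stage 1 left out, the line by stage term was called for Glyma15g34770 (edgeR adjusted p = 0.00270) and for Glyma08g24420 (adjusted p = 0.00244). The library was left out after its values for these genes were seen, so the calls are no independent evidence of a difference. With that library in the fit the adjusted p was 0.791 and 0.541. The library had 24.6 and 27.7 CPM of these WRI1 homologs, against 7.21 and 5.58 CPM and 7.99 and 6.85 CPM in its group mates.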

How the results depend on the processing

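Of the 364 values computed under other settings for 30 single-gene results, 314 kept direction and call, 33 lost the call, 10 gained it and 7 changed sign. The sign changes were those of FATB1a, stage 5 over stage 1, under total counts (-0.84 in 3mlpa, -0.60 in 3MWT), of Glyma15g34770 between the lines at stage 3 under total counts (0.064) and at stage 1 under the replicate block (0.15), and at stage 1 without 1 library, of Glyma15g34770 (-0.50 to 0.79) and Glyma08g24420 (-0.69 to 0.56). The causes were not tested. Between the lines, the 2 calls became 1 under the replicate block, and 0 in the fit over all 30 libraries, for the mean over the stages and with a 2-fold minimum, and were 1 to 3 with 1 library left out. Replicate numbers did not pair the samples (15 same-numbered pairs, r from -0.33 to 0.38, median -0.03, 3 above 0.1); under the block Glyma15g34770 at stage 2 lost its call (edgeR adjusted p = 0.0169), as did the step between stages 1 and 2 of Glyma08g24420 in 3mlpa (adjusted p = 0.0272).

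The 4 calls at steps became 2 under total counts, 0 to 4 with a replicate number left out, 10 libraries at a time, and 6 without replicate 3 of 3mlpa at stage 4 or replicate 2 of 3MWT at stage 1. With a replicate number left out, calls over the stages in 3MWT were 1 to 3, and calls of stage 5 against stage 1 were 3 to 5 in 3mlpa and 2 to 4 in 3MWT. In 3MWT these were also 2 with only the libraries of both stages and 2 with a 2-fold minimum. Under total counts the calls over the stages were 4 in 3mlpa and 5 in 3MWT, with both FATB genes called in each line and DGAT1B in neither. The line by stage calls were 2 without replicate 2 of 3MWT at stage 1, an alternative added after seeing the data.

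Stage 5 minus stage 1, the copy share differed by -12.9 (3mlpa) and -9.13 (3MWT) points for WRI1, 10.1 and 14.1 for DGAT1, and 8.98 and 8.45 for FATB, and with a replicate number left out by -12.1 to -10.2, 11.7 to 12.5 and 7.42 to 9.67; these designs cannot reach p under 0.05. Between the lines at stages 1 to 5 it differed by 4.16, 3.17, 1.04, -2.03 and 0.410 points for WRI1 and 2.43, 1.20, 0.922, 1.36 and 2.95 for FATB, and 1.56, -1.08, -0.018, -2.92 and -2.52 for DGAT1. With a replicate number left out it was 0.809 to 1.75 for WRI1 and 1.33 to 2.08 for FATB. The WRI1 difference missed p of 0.05 as a log2 ratio (0.078, permutation p = 0.0527) and under the replicate block (1.35, permutation p = 0.0736).

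DGAT1B had the lowest counts of the set, 79 to 264 per library, and no detection limit was computed.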

Other observations

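The 59 genes under lipid or fatty acid biosynthesis in the deposited gene ontology output, none of them WRI1, DGAT1 or FATB members, had a median log2 fold change of 3mlpa over 3MWT of 0.01, 0.18, -0.14, -0.24 and -0.53 at stages 1 to 5, beside a median of at most 0.03 for all genes. At stage 2, 20 of them were called higher in 3mlpa, 15 lower and 24 not (edgeR, adjusted p at or below 0.01), where 14.2 % of all genes were called. At stage 5, 2 were called higher, 14 lower and 43 not, where 1.91 % of all genes were called. The study listed these genes because they differed between the same libraries, so the counts and medians are no independent evidence of a direction.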
